A study of Mus musculus with 12 samples.

Results

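Imprinted genes are transcribed mainly from the maternal or the paternal copy, according to DNA methylation laid down in the parental germ cells, and many of them lie in clusters that share a control region. Several act on growth through insulin-like growth factor signalling, the cell cycle or progenitor maintenance, and a number of them are known as a network that is high in fetal and stem cells and falls after birth. The genes described here are 10 imprinted genes of the mouse: the long noncoding RNAs H19 and Meg3, the zinc finger genes Plagl1, Peg3 and Zim1, the signalling genes Dlk1 and Grb10, and Mest, Ndn and Sgce. They were chosen by name, with earlier results of these data known, so counts and medians over the 10 are descriptions of these genes only. Each of the 10 was found among the 53735 gene symbols of the count table. The counts do not tell the parental alleles apart, so every value is the sum over both copies.

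RNA was sequenced from mouse mammary epithelial cells that had been dissociated, sorted alive on the surface proteins CD24 and CD49f, and divided into a basal and a luminal population. Basal cells form the contractile outer layer of the mammary duct, and luminal cells line its lumen and hold the milk-producing lineage. With 12 libraries, each population of each genotype, WT or MMTVRANK, was sequenced in 3 replicates. MMTVRANK mice carry the receptor Rank under the promoter of mouse mammary tumour virus, which is active mainly in mammary epithelium, and WT mice are the controls. Age, strain, breeding history and the number of animals behind a library were not given in the sources used here. Where replicates are not separate animals, the p-values measure only the spread between these libraries, which may be technical. Total counts per library lay between 12459547 and 15069578.

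Markers of the sorted populations followed the titles. The summed level of 16 luminal markers lay between 8972 and 27867 CPM (counts scaled to the effective library size) in luminal libraries and between 582 and 896 CPM in basal libraries. The summed level of 14 basal markers lay between 24882 and 32875 CPM in basal and between 294 and 791 CPM in luminal libraries. In WT replicate 2, titles and cell subtype fields contradict each other on which library is basal; both libraries matched their titles, at 19970 CPM of luminal markers and 27637 CPM of basal markers, and the titles were used. Tnfrsf11a, the gene for Rank, was at 319, 156 and 238 CPM in MMTVRANK luminal replicates 1, 2 and 3, and at 6.36 and 9.91 CPM in WT luminal replicates 1 and 3. In the libraries labelled WT replicate 2 it was at 90.8 CPM in luminal and 158 CPM in basal cells, the latter above the 129 CPM of MMTVRANK basal replicate 2. Those values go against the WT label, and every genotype direction below takes the labels as they stand. Among basal libraries, WT basal replicate 1 stood apart with 3544 CPM of 12 fibroblast markers, against 440 to 841 CPM in the other 5. Among luminal libraries, MMTVRANK luminal replicate 3 stood apart with 499 CPM of 14 leukocyte markers, against 130 to 155 CPM in the other 5, and with the lowest luminal marker sum. WT basal replicate 1 held the highest basal value of 6 of the 10 genes, and MMTVRANK luminal replicate 3 the highest luminal value of 5.

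Some of the 10 genes also carry microRNAs inside their transcripts, which are shown here because the host RNA is what was counted. H19 is the precursor of miR-675, Meg3 hosts miR-770, and Mest hosts miR-335 in an intron. The mature sequences are from RefSeq on GRCm38.p6, written 5′ to 3′ with the seed, bases 2 to 8, in capitals. No seed is shared between any of those shown.
mmu-miR-675-5p: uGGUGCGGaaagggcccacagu
mmu-miR-675-3p: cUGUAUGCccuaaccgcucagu
mmu-miR-770-5p: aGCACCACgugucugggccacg
mmu-miR-770-3p: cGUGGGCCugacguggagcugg
mmu-miR-335-5p: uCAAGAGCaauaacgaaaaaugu
mmu-miR-335-3p: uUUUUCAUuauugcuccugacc
The table lists Mir675 and Mir770 with 0 counts in all 12 libraries. The library kit and the counting were not made for mature microRNAs, so nothing is measured of their levels here.

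Methylated imprinting control regions are bound by the zinc finger protein ZFP57, which is known to recognise the hexamer TGCCGC. RefSeq promoter entries (250 bases before each start) were found for 8 of the 10 genes, 12 entries in all, and H19 and Sgce had none. The hexamer was searched on both strands, where it reads GCGGCA on the other strand, and it occurs in 8.68% of 32851 mouse promoters of the same length. It was found at starts of Mest, Meg3, Plagl1 and Zim1. Mest, Meg3 and Zim1 fell in luminal cells of both genotypes, as described below, and Plagl1 did not. The entries of Ndn, Dlk1, Peg3 and Grb10 lacked the hexamer, though the Ndn stretch lies wholly within the counted exon of Ndn. Of these, Ndn and Dlk1 also fell in both genotypes, Peg3 was called lower in WT only, and Grb10 was called in neither. Mest and Meg3 each also had an entry without the hexamer. Whether the hexamer and the luminal fall are related was not tested. The stretches of Mest and Meg3 are shown with the hexamer in capitals, and that of Zim1 is not shown because its end lies within an exon. The Mest stretch lies at chr6:30737800-30738049 on the plus strand, at an internal start within the gene, with 14 CpG and a GC content of 62.4%. The Meg3 stretch lies at chr12:109540746-109540995 on the plus strand, with 10 CpG and a GC content of 52.4%. Over all 32851 promoters the median was 6 CpG and a GC content of 52.4%.
Mest: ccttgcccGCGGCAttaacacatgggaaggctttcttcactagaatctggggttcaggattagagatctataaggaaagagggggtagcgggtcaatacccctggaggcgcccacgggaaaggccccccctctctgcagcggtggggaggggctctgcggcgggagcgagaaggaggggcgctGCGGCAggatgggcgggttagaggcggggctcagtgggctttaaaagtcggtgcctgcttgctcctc
Meg3: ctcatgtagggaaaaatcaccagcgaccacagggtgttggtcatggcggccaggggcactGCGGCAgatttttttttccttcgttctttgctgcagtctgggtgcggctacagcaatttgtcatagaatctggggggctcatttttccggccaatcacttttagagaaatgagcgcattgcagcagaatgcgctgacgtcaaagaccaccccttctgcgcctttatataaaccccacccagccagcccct
The Mest stretch holds the hexamer 2 times and the Meg3 stretch 1 time. A match of letters is a description and shows no binding.

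In WT cells, 7 of the 10 genes were lower in luminal than in basal cells and none was higher. Ndn, Meg3, Dlk1 and Sgce were at or near 0 in every WT luminal library, and Zim1, Peg3 and Mest fell less. H19, Plagl1 and Grb10 did not pass the test, and for each of those 3 the libraries of the populations overlapped. A gene was called at an adjusted p under 0.05 in edgeR's quasi-likelihood test over all 18236 genes tested. That rule called 38.1% of all genes in this comparison, 20% as lower and 18% as higher in luminal cells. The low-count filter had a minimum of 10 counts, or 0.729 CPM. Ndn, Dlk1 and Sgce were under it in every luminal library of both genotypes, and Meg3 and Zim1 in most. These genes passed the filter through their basal libraries, which left a fall in luminal cells as the only direction that could be called for them. For the same 7 genes, every WT luminal library lay below every WT basal library, which held in that direction for 23.8% of all genes; 22.3% were separated the other way and 46.1% in either direction. The median log2 fold change of the 10, luminal over basal, was −2.71, against −0.07 over all genes. With both WT replicate 2 libraries left out, 3 of the 10 (Meg3, Ndn and Sgce) were called lower, where 28% of all genes were called in either direction. Markers of other cells differed between the populations as well: in WT, 11 of 12 fibroblast markers and 9 of 10 endothelial markers were called lower in luminal cells, and 1 of each list was called higher. Also called lower were 6 of 8 Schwann and nerve, 6 of 7 tested pericyte, 4 of 4 tested skeletal muscle and 2 of 3 tested adipocyte markers. The other pericyte marker was called higher, as were 2 of 14 leukocyte markers, with 0 leukocyte markers called lower. The fibroblast markers summed to 440 to 3544 CPM in WT basal and 420 to 542 CPM in WT luminal libraries, with none at 0 in all 3 libraries of either group. Schwann and nerve markers summed to 530 to 1133 CPM in WT basal and 127 to 174 CPM in WT luminal libraries. Adipocyte markers summed to 60.3 to 206 and 1.99 to 11.9 CPM in the same order. Pericyte sums went the other way, at 83.6 to 144 CPM in WT basal and 213 to 249 CPM in WT luminal libraries. So did leukocyte sums, at 23.9 to 64.3 and 142 to 155 CPM. Such sums do not show how far most single markers fell. In WT the median log2 fold change, luminal over basal, was −5.01 for the fibroblast markers and −4.36 for the endothelial markers. The part of all these markers in the values of the imprinted genes was not tested. In sorted bulk samples, fewer cells of a type and less RNA per cell cannot be told apart.

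In MMTVRANK cells, 6 genes were called lower in luminal cells (Meg3, Ndn, Zim1, Dlk1, Sgce and Mest) and Plagl1 was called higher, where the rule called 33.2% of all genes, 17% as lower and 16.1% as higher. All 6 had also been called lower in WT, and Peg3, called lower in WT, was not called in MMTVRANK. H19 was negative in WT and positive in MMTVRANK, and was called in neither. The groups did not overlap for those 6 and, in the other direction, for Plagl1 and Grb10, against 26.8% of all genes separated with luminal lower, 27.7% with luminal higher and 54.5% in either direction. The median log2 fold change was −3.12, against 0.05 over all genes.

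**Figure D1:**
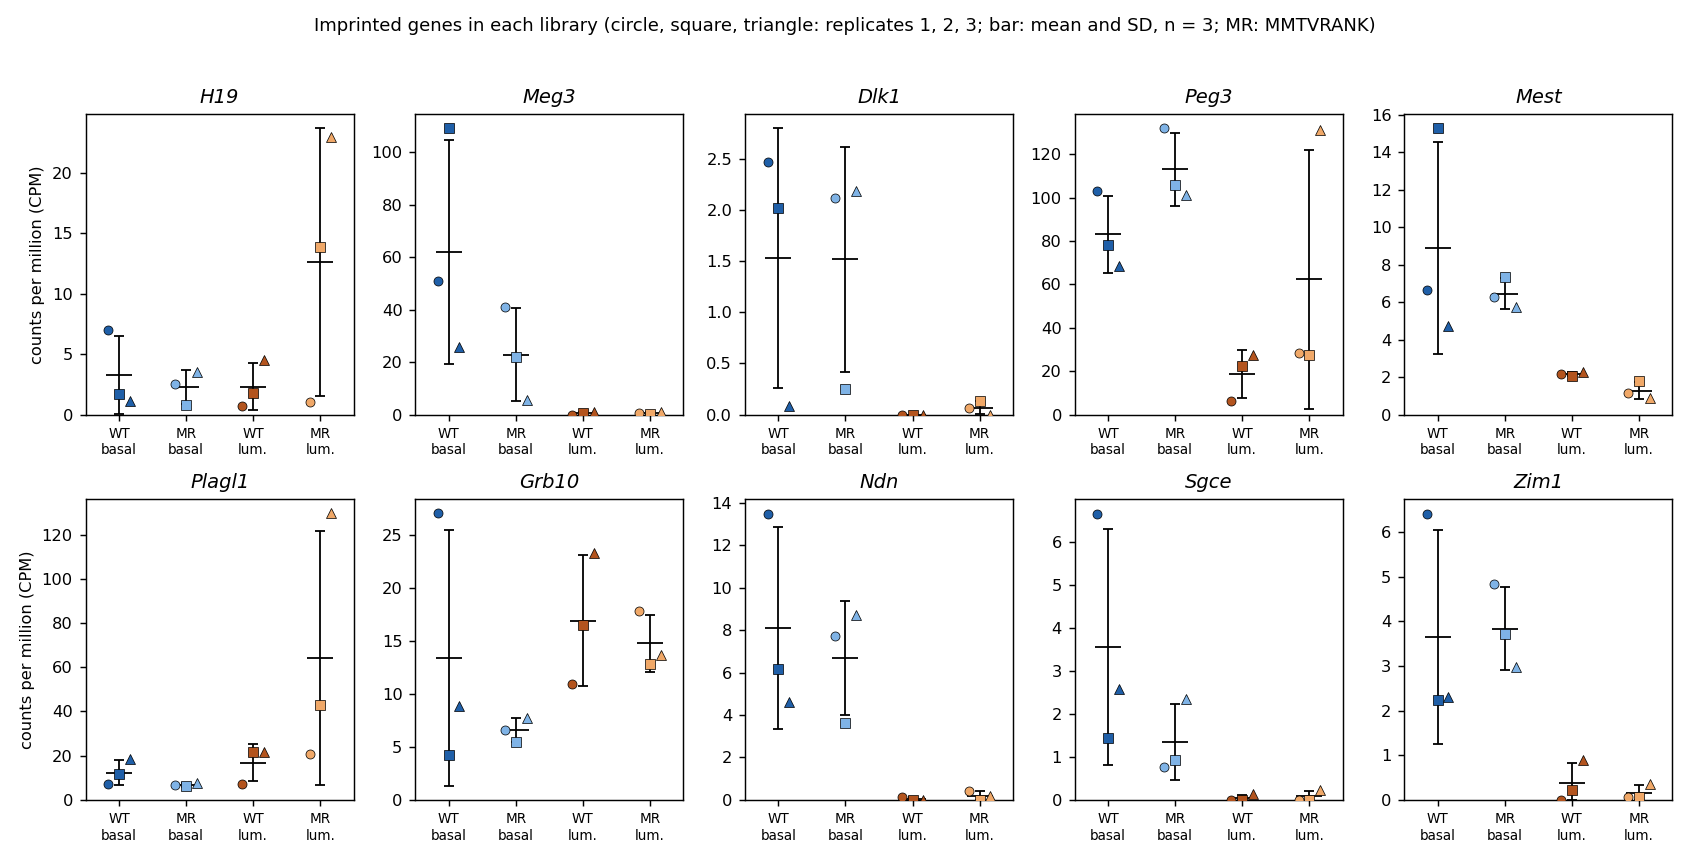
CPM of each of the 10 genes (vertical axis, linear, starting at 0, with its own scale per gene) in the 4 groups, with 1 point per library and a bar for the mean ± SD (n = 3). Ndn, Meg3, Dlk1, Sgce and Zim1 lie under 1 CPM in every luminal library, and H19, Peg3 and Plagl1 reach 23.0, 131 and 130 CPM in MMTVRANK luminal replicate 3.

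Meg3 (ENSMUSG00000021268.17, chromosome 12 from 109541001 to 109571726 on the plus strand) is a maternally expressed long noncoding RNA of the Dlk1-Dio3 cluster. Its level was 51.0, 109 and 25.9 CPM in WT basal replicates 1, 2 and 3, and 41, 21.8 and 5.56 CPM in MMTVRANK basal libraries. In luminal libraries it was 0, 0.426 and 0.826 CPM in WT and 0.545, 0.320 and 0.937 CPM in MMTVRANK. Every basal library was above every luminal library, and basal libraries of one genotype spread several-fold among themselves. Over the summed counts, Meg3 was 146-fold higher in basal than in luminal WT cells (95% counting interval 93.4 to 243) and 37.6-fold higher in MMTVRANK cells (26.0 to 56.5). Counting intervals, here and below, cover counting error only and leave out the spread between libraries. The log2 fold change, luminal over basal, was −7.14 in WT (SE 1.04, n = 3 per group, adjusted p = 0.000325, edgeR's quasi-likelihood test) and −5.21 in MMTVRANK (SE 0.95, adjusted p = 0.00163). Exons of the antisense gene Gm26906 cover 6.79% of the Meg3 exons, and it was listed with 0 counts in all libraries. Leaving out any single library kept both calls, and limma-voom, a test on weighted log2 values, lost the MMTVRANK call (adjusted p = 0.0547).

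Dlk1 (ENSMUSG00000040856.17, chromosome 12 from 109452823 to 109463336, plus strand) lies upstream of Meg3 and is the paternally expressed protein of the cluster, a transmembrane relative of the Notch ligands that is known from progenitor cells. It had 32, 28 and 1 counts in WT basal replicates 1, 2 and 3 (2.47, 2.02 and 0.0856 CPM), and 28, 3 and 28 counts in MMTVRANK basal libraries (2.12, 0.253 and 2.19 CPM). All 3 WT luminal libraries had 0 counts, and the MMTVRANK luminal libraries had 1, 2 and 0. WT basal replicate 3 and MMTVRANK basal replicate 2 were thus close to the luminal level, and within each genotype every basal library was above every luminal one. With 3 counts over the group as the floor for WT luminal cells, Dlk1 was at least 22.8-fold lower there than in WT basal cells. In MMTVRANK the basal sum was 24.6-fold higher (95% counting interval 8.03 to 123). Both differences were called (adjusted p = 0.0110 in WT and 0.0414 in MMTVRANK, edgeR's quasi-likelihood test). The MMTVRANK call held in 8 of 20 alternative fits and was lost with the replicate number as a block (adjusted p = 0.0542).

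Ndn (ENSMUSG00000033585.5, chromosome 7 from 62346569 to 62350262, plus strand) encodes necdin, a paternally expressed MAGE-family protein of the region deleted in Prader-Willi syndrome. It stood at 13.5, 6.19 and 4.62 CPM in WT basal and at 7.71, 3.63 and 8.70 CPM in MMTVRANK basal libraries. In luminal libraries the counts were 2, 0 and 0 in WT and 6, 0 and 3 in MMTVRANK, which is at most 0.408 CPM. No luminal library came near a basal one, in either genotype. Ndn had a log2 fold change, luminal over basal, of −7.18 in WT (SE 1.16, adjusted p = 0.000417) and −5.05 in MMTVRANK (SE 0.99, adjusted p = 0.00176, edgeR's quasi-likelihood test). The summed counts gave 177-fold in WT (315 against 2 counts, 95% counting interval 48.5 to 1466) and 35.6-fold in MMTVRANK (18.5 to 78.8). Both calls held without any single library.

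Sgce (ENSMUSG00000004631.15, chromosome 6 from 4674350 to 4747207, minus strand) encodes epsilon-sarcoglycan, a paternally expressed membrane protein of the dystrophin-associated complex. In basal libraries it was 6.65, 1.44 and 2.57 CPM in WT and 0.756, 0.927 and 2.35 CPM in MMTVRANK. Luminal replicate 3 of each genotype held the only luminal counts, 2 in WT and 4 in MMTVRANK. All luminal libraries were below all basal libraries, and WT basal replicate 1 was far above the other basal ones. The log2 fold change, luminal over basal, was −6.04 in WT (SE 1.41, adjusted p = 0.00490) and −3.90 in MMTVRANK (SE 1.28, adjusted p = 0.0327, edgeR's quasi-likelihood test). Over the summed counts this was 76.3-fold in WT (136 against 2 counts, 95% counting interval 20.7 to 636) and 16.0-fold in MMTVRANK (5.87 to 60.8). Leaving out single libraries kept the WT call in 12 of 12 fits. The MMTVRANK call was kept in 8 of the 12, and it was lost without MMTVRANK basal replicate 2 or 3 or MMTVRANK luminal replicate 1 or 2, with adjusted p between 0.0520 and 0.115.

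Zim1 (ENSMUSG00000002266.17, chromosome 7 from 6671269 to 6696450, minus strand) is a maternally expressed zinc finger gene directly next to Peg3. Basal libraries held 6.42, 2.23 and 2.31 CPM in WT and 4.84, 3.71 and 2.98 CPM in MMTVRANK. Luminal libraries held 0, 0.213 and 0.889 CPM in WT and 0.0681, 0.0639 and 0.351 CPM in MMTVRANK. WT luminal replicate 3, with 14 counts, was the highest luminal library and still below the lowest basal one. Zim1 fell by 3.26 on the log2 scale from basal to luminal cells in WT (SE 1.03, adjusted p = 0.0251), and in MMTVRANK the value was −4.47 (SE 1.11, adjusted p = 0.00776, edgeR's quasi-likelihood test). The WT call was lost without WT basal replicate 1 (adjusted p = 0.0826) and without WT luminal replicate 2 (adjusted p = 0.0843). The MMTVRANK call held without any single library.

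Peg3 (ENSMUSG00000002265.16, chromosome 7 from 6703892 to 6730431, minus strand), the paternally expressed partner of Zim1, encodes a large zinc finger protein that is known from growth, maternal behaviour and tissue stem cells. It had the highest mean per length of the 10 in basal cells, 6.24 CPM per kilobase of exon in WT, where its range overlapped that of Meg3, and 8.49 in MMTVRANK. Its basal values were 103, 78.1 and 68.4 CPM in WT and 132, 106 and 101 CPM in MMTVRANK. The luminal values were 6.06, 22.4 and 27.4 CPM in WT and 28.4, 27.4 and 131 CPM in MMTVRANK. Unlike its neighbour Zim1, it kept a clear luminal level, and MMTVRANK luminal replicate 3 reached the basal range. In WT the log2 fold change, luminal over basal, was −2.16 (SE 0.65, adjusted p = 0.0222, edgeR's quasi-likelihood test), a summed count 4.36-fold higher in basal cells (4.03 to 4.71). That call was lost without WT basal replicate 1 (adjusted p = 0.0598), WT luminal replicate 1 (adjusted p = 0.0725) or WT luminal replicate 2 (adjusted p at the threshold itself, 0.05). In MMTVRANK it was −0.86 (SE 0.62, adjusted p = 0.326) and the groups overlapped. Without MMTVRANK luminal replicate 3, the library with the raised leukocyte markers, it was −2.02 with adjusted p = 0.00870.

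Mest (ENSMUSG00000051855.15, chromosome 6 from 30723547 to 30748465, plus strand) is paternally expressed, encodes a protein of the alpha/beta hydrolase fold family and is known for its rise in growing fat tissue. Basal libraries stood at 6.65, 15.3 and 4.71 CPM in WT and 6.28, 7.34 and 5.72 CPM in MMTVRANK. Luminal libraries stood at 2.17, 2.06 and 2.29 CPM in WT and 1.16, 1.79 and 0.879 CPM in MMTVRANK. The populations did not overlap in either genotype, and the luminal values were close together. Mest fell by 2.03 on the log2 scale in WT (SE 0.49, adjusted p = 0.00620) and fell by 2.33 in MMTVRANK (SE 0.50, adjusted p = 0.00342, edgeR's quasi-likelihood test). Both calls held without any single library. The 3′ end of Mest shares 912 exon bases, 23.1% of its exons, with Copg2 on the other strand, and the counting used no strand option. Copg2 moved in the other direction, with 24.8 to 42.9 CPM in basal and 48.4 to 85.2 CPM in luminal libraries. How many Mest reads lie in the shared bases was not tested.

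**Figure D2:**
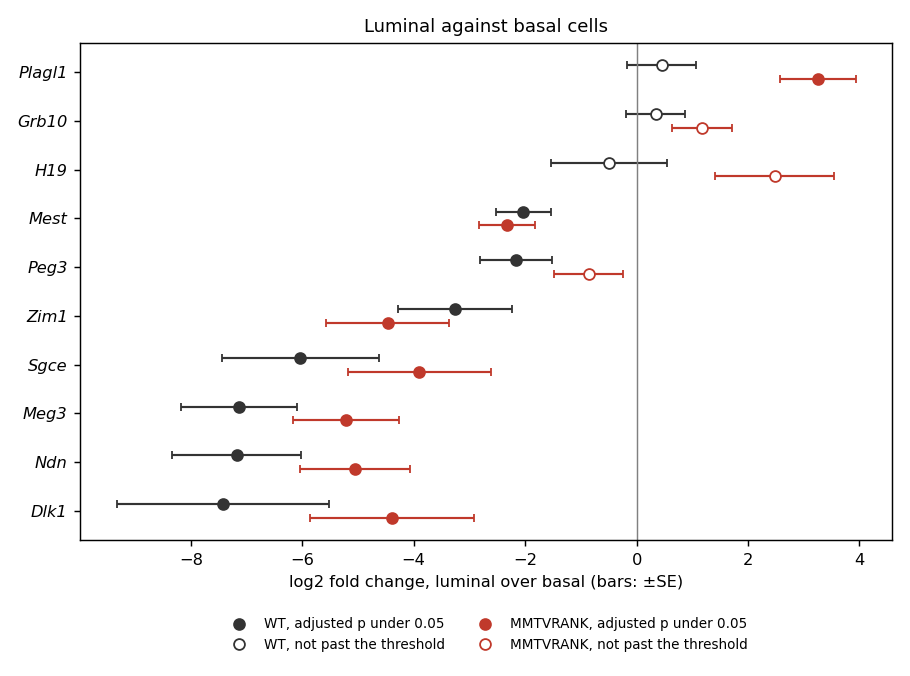
Log2 fold change of luminal over basal cells (horizontal axis) for the 10 genes in WT (black) and MMTVRANK (red), with bars of ± 1 SE; filled points have an adjusted p under 0.05 in edgeR's quasi-likelihood test. Of the genes to the left of 0, Dlk1, Ndn, Meg3, Sgce, Zim1 and Mest are filled in both genotypes, and Plagl1 is filled to the right of 0 at 3.25 in MMTVRANK.

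Plagl1 (ENSMUSG00000019817.18, chromosome 10 from 13060504 to 13131694, plus strand), also known as Zac1, is a paternally expressed zinc finger transcription factor that is known to arrest the cell cycle and to act on other imprinted genes. Its values were 7.04, 11.5 and 18.5 CPM in WT basal and 6.58, 6.07 and 7.60 CPM in MMTVRANK basal libraries. In luminal libraries they were 7.03, 21.8 and 21.7 CPM in WT and 20.8, 42.8 and 130 CPM in MMTVRANK. WT luminal and WT basal libraries overlapped, whereas every MMTVRANK luminal library was above every MMTVRANK basal one. The log2 fold change, luminal over basal, was 3.25 in MMTVRANK (SE 0.68, adjusted p = 0.00344) and 0.45 in WT (SE 0.62, adjusted p = 0.614, edgeR's quasi-likelihood test). Without MMTVRANK luminal replicate 3 the MMTVRANK value was 2.24 and still called (adjusted p = 0.00472). The difference between the genotypes in this effect was 2.80 (SE 0.90), with an unadjusted p of 0.00972 and an adjusted p of 0.525, so it did not pass over all genes.

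H19 (ENSMUSG00000000031.16, chromosome 7 from 142575529 to 142578143, minus strand) is a maternally expressed long noncoding RNA that is abundant in fetal tissue and is reciprocally imprinted with its neighbour Igf2. It was 6.96, 1.73 and 1.11 CPM in WT basal and 2.50, 0.759 and 3.53 CPM in MMTVRANK basal libraries. Luminal libraries held 0.674, 1.77 and 4.51 CPM in WT and 1.02, 13.9 and 23.0 CPM in MMTVRANK. MMTVRANK luminal replicates 2 and 3 were above all other libraries, while replicate 1 lay among the rest. In WT the log2 fold change, luminal over basal, was −0.49 (SE 1.04, adjusted p = 0.749), and it was 0.71 without WT basal replicate 1. In MMTVRANK it was 2.48 (SE 1.07, adjusted p = 0.1, edgeR's quasi-likelihood test), and it passed without MMTVRANK luminal replicate 1, at 3.02 (adjusted p = 0.0269). Igf2 had at most 3.09 CPM in any library, reached in WT basal replicate 1, and was too low to be tested.

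Grb10 (ENSMUSG00000020176.17, chromosome 11 from 11930508 to 12038683, minus strand) encodes an adaptor that binds the insulin and IGF1 receptors and dampens their signal; it is maternally expressed in most tissues. Basal values were 27.1, 4.18 and 8.90 CPM in WT and 6.58, 5.48 and 7.68 CPM in MMTVRANK. Luminal values were 10.9, 16.5 and 23.3 CPM in WT and 17.8, 12.8 and 13.7 CPM in MMTVRANK. MMTVRANK libraries of the populations did not overlap, and in WT the single high basal library, replicate 1, covered the whole luminal range. Grb10 had a log2 fold change, luminal over basal, of 0.34 in WT (SE 0.53, adjusted p = 0.653) and 1.17 in MMTVRANK (SE 0.54, adjusted p = 0.119, edgeR's quasi-likelihood test). Without WT basal replicate 1, the library with the raised fibroblast markers, the values were 1.39 (adjusted p = 0.0235) in WT and 1.17 (adjusted p = 0.0270) in MMTVRANK, both past the threshold.

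The order of the 10 genes per exon length differed between the populations. In WT basal cells Peg3 led with a mean of 6.24 CPM per kilobase (5.13 to 7.72 over the 3 libraries), followed by Meg3 at 3.43 (1.43 to 6.02), Mest at 2.26 and Ndn at 2.20. The ranges of Peg3 and Meg3 overlapped, as did those of Mest, Ndn, Plagl1, Grb10 and H19, so their order was not resolved. Zim1, Sgce and Dlk1 were the lowest, with means of 0.452, 0.335 and 0.270 CPM per kilobase. In WT luminal cells Plagl1 (2.15), Grb10 (1.86) and Peg3 (1.40) had the highest means and overlapped in range, followed by H19 at 0.943 and Mest at 0.550. The range of H19, 0.274 to 1.83, overlapped those of Plagl1, Grb10, Peg3 and Mest, so its place was not resolved. The other 5 had luminal means of at most 0.0454 CPM per kilobase. In MMTVRANK luminal cells the means were 8.24 for Plagl1, 5.14 for H19 and 4.68 for Peg3, with ranges of 2.66 to 16.6, 0.415 to 9.36 and 2.06 to 9.86, all of which overlapped.

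The genotype comparison set MMTVRANK against WT libraries within each population, and the activity of Rank was not measured. Tnfrsf11a itself was not called in edgeR's quasi-likelihood test. Its log2 fold change, MMTVRANK over WT, was 2.74 in luminal cells (SE 0.89, adjusted p = 0.224), where the groups did not overlap. In basal cells it was 1.36 (SE 0.85, adjusted p = 0.977), and the groups overlapped. In luminal cells none of the 10 genes passed the test, where edgeR's quasi-likelihood test called 0.252% of all genes (46 genes, and 103 with the replicate number as a block). At an unadjusted p under 0.05 there were 3, Plagl1, Peg3 and H19, each higher in MMTVRANK, against 12% of all genes. DESeq2 called 1 of the 10, Plagl1, and 4.39% of all genes. The limma-voom fit called none of the 10 and 0.159% of all genes, and edgeR without a filter on low counts called 3 of the 10 and 3.58% of all genes. The median log2 fold change of the 10, MMTVRANK over WT, was 1.24, against 0.03 over all genes. The libraries did not overlap for Peg3, which was higher in MMTVRANK, and for Mest, which was lower, against 16.9% of all genes in either direction.

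Plagl1 had a luminal log2 fold change, MMTVRANK over WT, of 1.94 (SE 0.63, unadjusted p = 0.0111, adjusted p = 0.226, edgeR's quasi-likelihood test). The MMTVRANK values of 20.8, 42.8 and 130 CPM overlapped the WT values of 7.03, 21.8 and 21.7 CPM only through the lowest of them. With DESeq2 the value was 1.88 and passed (adjusted p = 0.0380). Without MMTVRANK luminal replicate 3 it was 0.89 (adjusted p = 0.846). Peg3 had 1.74 (SE 0.64, unadjusted p = 0.0196, adjusted p = 0.281), and 0.55 without that library (adjusted p = 1.00). The lowest MMTVRANK value of Peg3 and its highest WT value both round to 27.4 CPM. H19 had 2.44 (SE 1.07, unadjusted p = 0.0423, adjusted p = 0.392), and 1.65 without it (adjusted p = 0.958). The leukocyte marker sum of that library was 499 CPM and its luminal marker sum 8972 CPM, against 130 to 141 and 14535 to 16496 CPM in the other MMTVRANK luminal libraries. The part of these differences in the levels of the 3 genes was not tested.

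Of the genes that were nearly silent in luminal cells, Ndn had 2 counts over the WT and 9 over the MMTVRANK libraries (4.10-fold, 95% counting interval 0.849 to 39.0). Meg3 had 19 and 29 counts (1.39-fold, 0.754 to 2.63), Sgce 2 and 4, and Dlk1 0 and 3. Zim1 had 17 and 8 counts, 2.33-fold higher in WT (0.954 to 6.24). The counting intervals of the Ndn, Meg3 and Zim1 ratios include equal levels, and none of the 5 genes was called. Those of H19 (4.41 to 6.74), Peg3 (3.15 to 3.67) and Plagl1 (3.61 to 4.25), higher in MMTVRANK, exclude equal levels. So do those of Mest (1.23 to 2.42) and Grb10 (1.06 to 1.31), higher in WT. They cover counting error only. Mest stood at 2.06 to 2.29 CPM in WT and 0.879 to 1.79 CPM in MMTVRANK luminal libraries, which is −0.77 on the log2 scale (SE 0.49, adjusted p = 0.630). Grb10 differed by −0.20 on the log2 scale (SE 0.52, adjusted p = 0.962). In luminal cells, 12 proliferation markers summed to 808 to 1842 CPM in MMTVRANK and 124 to 373 CPM in WT. Milk genes were lower in MMTVRANK, at 124 to 284 CPM over 8 genes against 752 to 1878 CPM, and 4 of the 7 tested were called lower. Luminal markers were at 8972 to 16496 CPM in MMTVRANK and 18383 to 27867 CPM in WT. For each of these 3 sums the exact permutation test gave p = 0.1, the smallest possible with 3 against 3, and adjusted p = 0.367 over 22 tests. Their part in the values of the 10 genes was not tested.

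**Figure D3:**
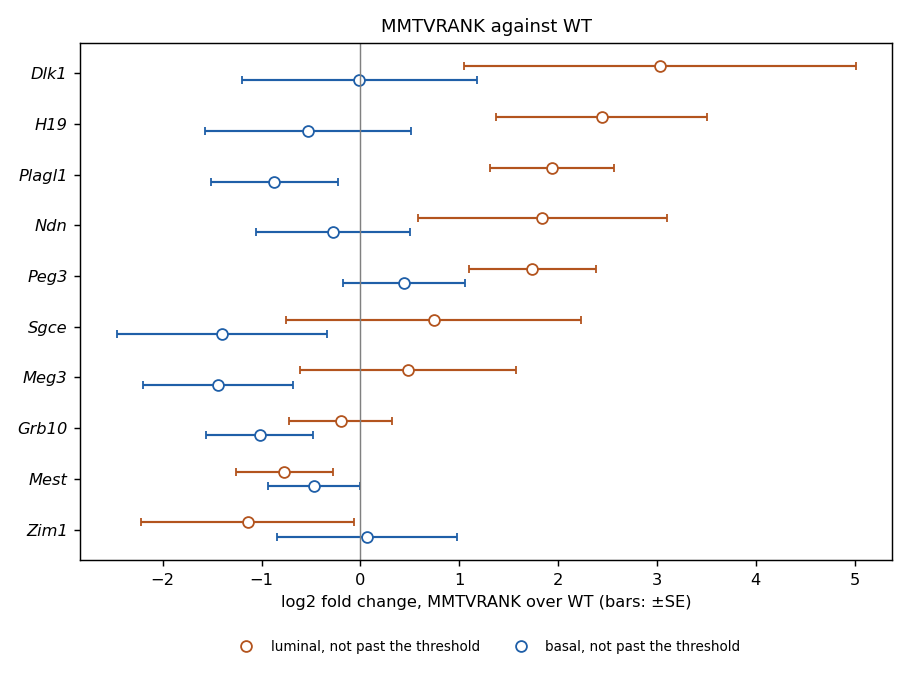
Log2 fold change of MMTVRANK over WT (horizontal axis) for the 10 genes in luminal (orange) and basal (blue) cells, with bars of ± 1 SE. All points are open because none had an adjusted p under 0.05, and Plagl1, Peg3 and H19 lie at 1.94, 1.74 and 2.44 in luminal cells.

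In basal cells none of the 10 genes passed either, and none had an unadjusted p under 0.05, where edgeR called 0.00548% of all genes and 5.41% had an unadjusted p under 0.05. The median log2 fold change of the 10, MMTVRANK over WT, was −0.50, with 8 of the 10 negative, against 0.00 over all genes. DESeq2 and limma-voom called none of the 10, and 0.362% and 0% of all genes. Without a filter, edgeR called Meg3 and 0.924% of all genes. No gene of the 10 had separated groups, which held for 11.1% of all genes. Meg3 had a log2 fold change, MMTVRANK over WT, of −1.44 (SE 0.76, adjusted p = 0.934, edgeR's quasi-likelihood test), which was −0.75 without WT basal replicate 2 and −2.18 without MMTVRANK basal replicate 1. Sgce had −1.40 (SE 1.06) and Grb10 −1.02 (SE 0.54), and Plagl1 had −0.87 (SE 0.64). WT basal replicate 1, with the raised fibroblast markers, carried the top value of Sgce and Grb10, and without it the Grb10 value was 0.02 and the Sgce value −0.56. Peg3, Zim1 and Dlk1 differed by 0.44, 0.07 and −0.01, and the counting interval of the Dlk1 ratio, 0.699 to 1.48, includes equal levels. So does that of Zim1 (0.83 to 1.34), while those of the rest of the 10 exclude them, as for Meg3 (2.59 to 3.02, higher in WT). These intervals cover counting error only. Summed Schwann and nerve markers were also lower in MMTVRANK basal libraries, at 256 to 478 CPM over 8 genes against 530 to 1133 CPM in WT, and luminal markers were at 582 to 674 CPM against 863 to 896 CPM. Basal markers were higher in MMTVRANK, at 29208 to 32875 CPM over 14 genes against 24882 to 27637 CPM. For each of these sums the exact permutation test gave p = 0.1 (adjusted p = 0.367 over 22 tests), and none of their genes was called. MMTVRANK basal replicate 3 held 189 CPM of 14 leukocyte markers, against 23.9 to 64.3 CPM in the other basal libraries. The part of these markers in the values of the 10 genes was not tested.

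The genotype effect did not differ between the populations for any of the 10 genes after adjustment (edgeR's quasi-likelihood test for the difference of effects, which called 0.00548% of all genes). Plagl1 alone had an unadjusted p under 0.05, as given above, against 7.73% of all genes. DESeq2 and limma-voom called none of the 10 for this difference, and 0.768% and 0% of all genes. Without a filter, edgeR called 4 of the 10 (H19, Meg3, Peg3 and Plagl1) and 2.05% of all genes.

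Of 21 neighbours in the same clusters, 20 were in the table and only 8 had enough counts to be tested. In WT, 2 of the 8 were called higher and 2 lower in luminal cells, and in MMTVRANK 3 higher and 1 lower, with none called between genotypes. Over all genes, 18% were called higher and 20% lower in WT, and 16.1% and 17% in MMTVRANK. In the Dlk1-Dio3 cluster, Rian, a noncoding RNA downstream of Meg3, was at 37.4, 34.9 and 7.19 CPM in WT basal and at most 0.527 CPM in luminal libraries. Its log2 fold change, luminal over basal, was −6.63 in WT (SE 1.17, adjusted p = 0.00107, edgeR's quasi-likelihood test). For Rian as for Meg3, replicate 3 was the lowest basal library of each genotype. Dio3, at the far end of that cluster, had 0 counts in all libraries. Next to Sgce, the paternally expressed Peg10, a retrotransposon-derived gene, was at 8.20, 1.66 and 2.82 CPM in WT basal and at most 0.410 CPM in luminal libraries, and was called lower in WT luminal cells (−4.88, SE 1.05, adjusted p = 0.00305). In MMTVRANK basal libraries Peg10 was at 1.21, 0.422 and 0.705 CPM, and the value of −1.40 there (SE 0.93, adjusted p = 0.284) was not called. Ppp1r9a, on the other side of Peg10, went the other way, with 1.26 to 17.2 CPM in basal and 54.9 to 126 CPM in luminal libraries (3.00 in WT, SE 0.52, adjusted p = 0.000997). Magel2, next to Ndn, had 7 counts over the WT basal libraries and 1 over all the others.

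Of 25 other imprinted genes not listed as neighbours, some of them near H19 on chromosome 7 (such as Cdkn1c and Slc22a18), 23 were tested. In WT, 6 were called higher and 6 lower in luminal cells, where 18% and 20% of all genes were. In MMTVRANK, 6 were called higher and 9 lower, where 16.1% and 17% of all genes were. The median log2 fold change of these 23 was −0.47 in WT and −0.39 in MMTVRANK, against −2.71 and −3.12 for the 10 genes. Both lists were chosen with earlier results of these data known, so this contrast is a description and no test of the 10. Cdkn1c, which encodes the cyclin-dependent kinase inhibitor p57, fell by 3.92 in WT (SE 0.58, adjusted p = 0.000232) and fell by 4.23 in MMTVRANK (SE 0.58, adjusted p = 0.000139, edgeR's quasi-likelihood test), from 11.6 to 36.7 CPM in basal libraries to at most 1.70 CPM in luminal ones. Slc38a4, an amino acid transporter, fell by 7.12 in WT (SE 1.15) and fell by 6.76 in MMTVRANK (SE 1.10). Rasgrf1, a Ras exchange factor, was higher in luminal cells by 4.58 in WT (SE 0.56) and 5.71 in MMTVRANK (SE 0.66). Slc22a18, a transporter next to Cdkn1c, was higher by 7.2 in MMTVRANK (SE 1.02), with 10.8 to 15.0 CPM in luminal and at most 0.157 CPM in basal libraries of that genotype.

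**Figure D4:**
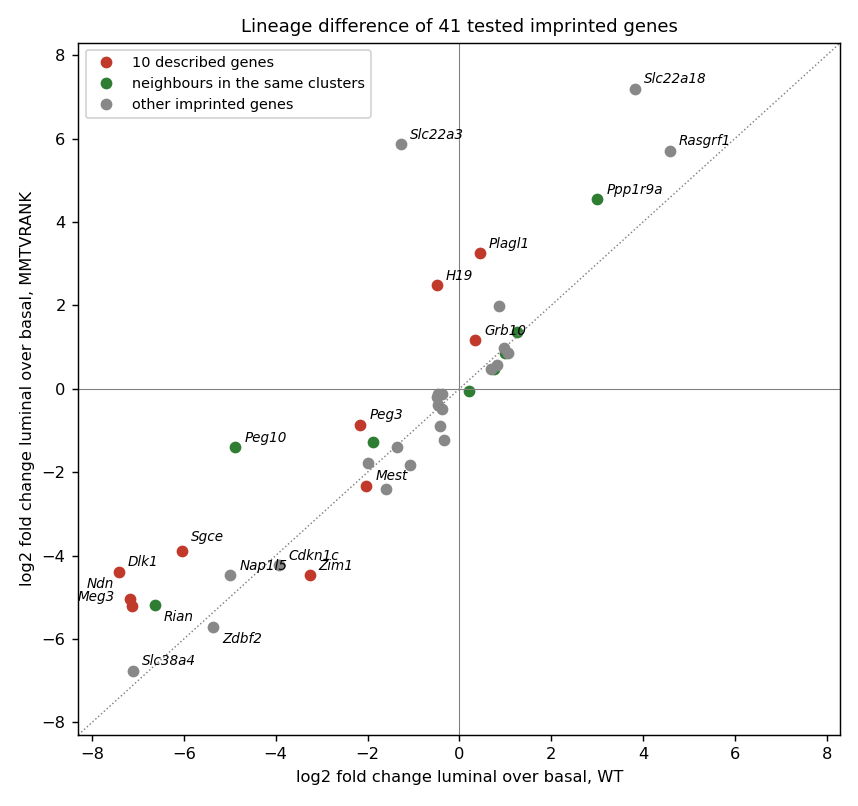
Log2 fold change of luminal over basal cells in WT (horizontal) and in MMTVRANK (vertical) for the 41 imprinted genes tested, 1 point per gene, with the line of equal values dotted. Ndn, Meg3, Dlk1, Sgce, Rian, Slc38a4, Zdbf2 and Cdkn1c lie at the lower left, Rasgrf1, Slc22a18 and Ppp1r9a at the upper right, and Plagl1 and H19 near 0 in WT but above it in MMTVRANK.

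For each of the 10 genes, the tested genes whose log2 CPM was most like it over the 12 libraries were listed by Pearson's r, among 11090 genes. The points share the population and genotype, so r mostly follows the group differences, and it is a description. Ndn was most like Prr12 and Cd248 (r = 0.984 each), Zim1 like Per1 and Foxo1 (0.980 each), Peg3 like Evl (0.977) and Gprasp2 (0.971), and Meg3 like Slc4a4 (0.975) and Hr (0.967). Sgce was most like Serping1 and Lims2 (0.973 each), Mest like Fam135a (0.964) and Mark4 (0.957), and Dlk1 like Trim13 (0.944) and Ckap4 (0.938). Plagl1 was most like Elovl6 (0.947) and Gnl2 (0.936), and H19 like Pus7 (0.890) and Spib (0.887). Grb10 had the weakest best match, Dnajc17 at 0.875, followed by Lmln at 0.874.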

How the data were processed

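Reads were aligned with STAR 2.6.1b to GRCm38.p6 and counted with Subread 1.5 (source: the submitters' processing notes). Raw counts per gene symbol were deposited, made by the authors with featureCounts 1.5.2 by largest overlap on GENCODE M17 with no strand option, per the file headers; libraries came from a stranded low-input total RNA kit, per the labels' protocols. The deposited exon lengths, in bases (unit other), served for CPM per kilobase. The 66 library pairs held no duplicate (lowest chi-square per degree of freedom 18.5).

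CPM were scaled by TMM. Genes were kept by filterByExpr with a count minimum of 10, which left 18236. Counts of all 12 libraries in 4 title groups were fitted with edgeR 4.0.16 (quasi-likelihood, robust, R 4.3.3), with Benjamini-Hochberg adjustment over all genes; the SE of a log2 fold change was that value divided by the square root of F. Counting intervals are exact 95% intervals on summed counts and, like the floor of 3 counts over a group, cover counting error only. The members and lists were chosen with earlier results of these data known. Named besides the 10 genes were Tnfrsf11a, Igf2, Peg10 and Cdkn1c, up to 4 listed imprinted genes per direction by smallest p, and 2 likeness matches per gene with an average log2 CPM of 2 or more. Copg2, Dio3, Magel2 and single marker genes were named after their values were seen. Alternatives were DESeq2 size factors, no filter (37789 genes), DESeq2 1.42.0, limma-voom (limma 3.58.1), the replicate block, groups by the cell subtype field, both WT replicate 2 libraries left out, and each library left out. Leaving out WT basal replicate 1 and MMTVRANK luminal replicate 3 together was added after seeing the data. The fit was tested on simulated data.

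Replicate numbers were checked on deviations from group means over 10082 genes. Same-numbered libraries correlated at 0.525, 0.125 and 0.392 across the genotypes in luminal cells, at 0.277, 0.168 and 0.343 across WT populations, and at 0.278, 0.144 and 0.199 across MMTVRANK populations (numbers 1, 2 and 3). All exceed 0.1, so these libraries were read as paired on the data alone, since no label explains the numbers. The main fit nevertheless held no term for the replicate number, and results with it as a block are given below.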

Additional observations from a re-analysis of the deposited data

How the results depend on the processing

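Of the lineage calls, those of Meg3, Mest and Ndn in both genotypes, of Dlk1 and Sgce in WT and of Plagl1 and Zim1 in MMTVRANK held without each single library. Depth limits what can be said of Dlk1, Ndn, Sgce and Zim1 in luminal cells, where a library held at most 14 counts. The genotype calls are few and depend on the tool, and the cause was not tested. Over all genes, the luminal genotype comparison gave 1353 genes without a filter on low counts, 800 with DESeq2, 29 with limma-voom, 103 with the replicate block, 0 by the cell subtype field, 81 without both WT replicate 2 libraries and 13 without WT basal replicate 1 and MMTVRANK luminal replicate 3, against 46. The basal comparison gave 349, 66, 0, 0 by the subtype field, 4 and 3, against 1, and the difference of effects 776, 140, 0, 0 with the block, 0 by the subtype field, 3 and 0, against 1. By the subtype field the lineage comparisons gave 0 genes in WT, against 6940, and 3 in MMTVRANK, against 6049, and 0 of the 10 in each. Without a filter 3, 1 and 4 of the 10 were called for the luminal, the basal and the difference of effects, against 0; DESeq2 called 1 in luminal cells. Without both WT replicate 2 libraries 3 of the 10 were called between WT populations, against 7. Leaving out single libraries gave 3 to 93 genes in luminal cells, 0 to 8 in basal cells and 0 to 7 for the difference.

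Directions turned as follows, all in log2 fold changes. Grouping by the subtype field, which swaps the WT replicate 2 libraries, turned the luminal genotype values of Meg3 to −5.90, Dlk1 −3.21, Grb10 0.21, Ndn −3.39, Sgce −2.56, Peg10 −1.11 and Cdkn1c −2.03, and the basal ones of Dlk1 to 0.83, Mest 0.53 and Ndn 0.14. It also turned the WT lineage values of Meg3 to 0.50, Mest 0.56, Plagl1 −0.23 and Grb10 −0.45, and the differences of effects of Meg3 to −5.72, Dlk1 −4.04, Peg3 −0.06, Ndn −3.54 and Sgce −1.38. Without WT basal replicate 1 and MMTVRANK luminal replicate 3, luminal Sgce was −2.57 and Cdkn1c −0.06, basal H19 0.68, Dlk1 0.53, Grb10 0.02 and Ndn 0.31, WT lineage H19 0.71, and the differences of effects Peg3 −0.05, Mest 0.08, Grb10 −0.17 and Sgce −2.01. Without both WT replicate 2 libraries, basal Dlk1 was 0.25, Mest 0.19 and Zim1 −0.18, WT lineage Grb10 −0.06 and the difference of effects of Cdkn1c 0.27. Basal Dlk1, at −0.01, turned to 0.01 without a filter, 0.33 with limma-voom and 0.44 with the replicate block. Over single libraries left out, luminal genotype values spanned −0.05 to 1.40 for Meg3, −0.43 to 0.06 for Grb10, −2.58 to 3.30 for Sgce, −2.38 to 0.53 for Zim1 and −0.10 to 0.89 for Cdkn1c. Basal ones spanned −0.99 to 0.68 for H19, −0.55 to 0.53 for Dlk1, −0.76 to 0.19 for Mest, −1.44 to 0.02 for Grb10, −0.55 to 0.31 for Ndn and −0.18 to 0.77 for Zim1. Lineage values spanned −1.40 to 0.71 for H19 and −0.08 to 1.39 for Grb10 in WT, and −0.41 to 0.46 for Tnfrsf11a in MMTVRANK. Differences of effects spanned −0.22 to 1.25 for Grb10, −1.15 to 4.73 for Sgce, −2.42 to 0.49 for Zim1 and −0.71 to 0.28 for Cdkn1c.

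With the replicate block, Dlk1 in MMTVRANK was the only call among the 10 that was lost (adjusted p = 0.0542), and none was gained. Basal libraries of the genotypes share only a number (correlations 0.404, −0.0706 and 0.0915), and the block called 1 gene there, as without it.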

Other observations

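Besides the 10 genes and the listed cluster neighbours, 23 other imprinted genes were tested, and none passed edgeR's quasi-likelihood test between the genotypes. In luminal cells 6 of the 23 had separated genotypes, 2 higher and 4 lower in MMTVRANK, where 16.9% of all genes were separated. In basal cells 4 were separated, 3 higher and 1 lower, where 11.1% of all genes were. Of the 8 tested cluster neighbours, none was separated in luminal cells. In basal cells 2 of the 8 were, Peg10 and Ppp1r9a, both lower in MMTVRANK and neither called. The following 3 of the 23 were picked after their values were seen. Zrsr1, with the smallest luminal adjusted p of the 23, was at 32, 28 and 24.0 CPM in MMTVRANK and 48.1, 50.1 and 53.5 CPM in WT luminal libraries (log2 fold change −0.85, SE 0.17, adjusted p = 0.0683). Rasgrf1, a Ras exchange factor, was at 15.0, 15.1 and 4.69 CPM in MMTVRANK and 48.5, 43.3 and 42.8 CPM in WT luminal libraries (−1.95, SE 0.49, adjusted p = 0.112). In basal libraries it was at 0, 0.337 and 0.313 CPM in MMTVRANK and 1.78, 1.37 and 2.48 CPM in WT (−3.08, SE 0.68, adjusted p = 0.549).

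Slc22a3, an organic cation transporter of the Igf2r cluster, was at 1.5, 14.5 and 49.0 CPM in MMTVRANK luminal replicates 1, 2 and 3, and at 0, 1.21 and 0 CPM in WT luminal libraries (5.73, SE 1.67, adjusted p = 0.184). The nearest libraries, MMTVRANK replicate 1 and WT replicate 2, differed by 22 against 17 counts, and the highest was the library with the raised leukocyte markers. In basal libraries it was at 0.454, 0 and 0.627 CPM in MMTVRANK and 0.464, 0.288 and 2.22 CPM in WT (−1.40, SE 1.60, adjusted p = 1.00).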
